A study of Mus musculus with 16 samples.

Results

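Collagen genes of the mouse lung were followed through 16 Affymetrix whole-transcript arrays of total lung RNA, 1 array per sample. A gene was taken as a collagen where its symbol in the platform annotation was Col, a number, the letter a and a number, with nothing after. This found 44 genes on 46 probe sets, out of 19938 genes with a probe set of their own, and every one of the 44 symbols of this form in the RefSeq gene table was measured. They fell into 11 fibrillar collagens, 8 basement membrane collagens and 25 others, namely 6 type VI chains, 9 fibril-associated collagens, 4 transmembrane collagens and 6 short-chain or remaining collagens.

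All mice were on a C57BL/6 background and aged 10 to 12 weeks per the labels, which do not say at which step. They were instilled into the trachea with crystalline silica (CS), a mineral dust that the lung cannot dissolve, or with phosphate-buffered saline (PBS). Lungs of day 2 came from BLT1+/+ or BLT1-/- mice. Those of day 60 came from mice that carried KRasLA1 as well, named BLT1+/+KRasLA1 or BLT1-/-KRasLA1. BLT1 is a receptor for leukotriene B4, a lipid that draws neutrophils, and KRasLA1 is a mutant allele that becomes active after a chance recombination in single cells and leads to lung tumors. Every lung of day 60 carried KRasLA1 and no lung of day 2 did, so the day and the allele cannot be told apart. For each genotype there were 3 CS lungs, called biological replicates in the labels, and 1 array of PBS lungs pooled from 3 mice. A pool has no replicate, so each response to silica rests on the assumption that a pool varies like a CS lung. The labels give no animal numbers, so the p-values speak of the variation among these arrays, technical variation included.

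Collagens are secreted proteins wound from 3 chains that share a repeat of glycine with other residues. Chains are hydroxylated and folded in the endoplasmic reticulum, trimmed outside the cell and cross-linked by lysyl oxidases. Fibrillar collagens such as types I, III and V form the tensile fibers of airways, vessels and alveolar septa, and excess deposition of them marks silicotic fibrosis. Type IV chains form the network of basement membranes, where the Col4a1 and Col4a2 chains are found in all tissues and the Col4a3, Col4a4 and Col4a5 chains form a specialised network of the kidney glomerulus and the lung alveolus. Type VI chains form beaded filaments around cells, and fibril-associated collagens such as types XII and XIV sit on the surface of fibers.

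In the mean of both BLT1 genotypes, CS lungs of day 2 read higher than PBS pools for fibrillar Col1a1, Col1a2, Col3a1 and Col5a2. They also did for the basement membrane chains Col4a1 and Col4a2 and for Col6a1, and read lower for Col14a1. The Col4a1 and Col4a2 differences were 0.15 and 0.13 in BLT1+/+ mice and 0.39 and 0.55 in BLT1-/- mice, an interaction that was not called. At day 60 CS lungs read higher for Col3a1 and Col1a2, but the Col1a2 difference was 0.06 without the BLT1-/-KRasLA1 pool. Sequence before the RefSeq start site (assembly GRCm38.p6) was given for 35 of the 44 collagens, in 38 windows, and not for the other 9, Col1a1 and Col5a2 among them. Windows of 3 genes are shown with their motifs in capitals, on the gene's own strand: those of Col3a1 and Col1a2, which were called at both days, and that of Col8a1, whose CS lungs differed most between days. Col3a1 lies at chr1:45311288-45311537 on the forward strand, Col1a2 at chr6:4505368-4505617 on the forward strand and Col8a1 at chr16:57754738-57754987 on the reverse strand, each 250 bases long and ending at the base before the start.
Col3a1: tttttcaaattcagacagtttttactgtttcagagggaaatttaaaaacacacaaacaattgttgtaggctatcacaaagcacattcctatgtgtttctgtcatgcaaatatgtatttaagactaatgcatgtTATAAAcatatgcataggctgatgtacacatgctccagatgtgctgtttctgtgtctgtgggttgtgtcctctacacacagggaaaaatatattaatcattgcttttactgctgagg
Col1a2: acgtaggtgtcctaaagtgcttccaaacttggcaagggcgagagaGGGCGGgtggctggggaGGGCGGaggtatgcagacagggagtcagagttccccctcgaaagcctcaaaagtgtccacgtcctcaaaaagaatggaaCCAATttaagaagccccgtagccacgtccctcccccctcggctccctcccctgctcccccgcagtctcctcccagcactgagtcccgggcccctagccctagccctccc
Col8a1: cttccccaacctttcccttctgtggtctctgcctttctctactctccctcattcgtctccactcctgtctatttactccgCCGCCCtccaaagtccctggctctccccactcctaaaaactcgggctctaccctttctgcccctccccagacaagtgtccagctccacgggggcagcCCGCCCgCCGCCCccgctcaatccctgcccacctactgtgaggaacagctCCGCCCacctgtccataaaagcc
The motifs searched on both strands were the TATA box (TATAAA), the CCAAT box (CCAAT) and the GC box (GGGCGG), and no match overlapped another in the windows shown. The Col3a1 window held TATAAA from -117 to -112, counted back from the start, with no GC box. Upstream of Col1a2 stood GC boxes from -205 to -200 and from -188 to -183 and a CCAAT box from -109 to -105. The Col8a1 window held 4 GC boxes on the opposite strand, the nearest from -23 to -18. A GC box was present in 57.9% of the 38 collagen windows and in 32.7% of all 32851 windows of this length, a CCAAT box in 34.2% and 33.8%, and TATAAA in 13.2% and 12.4%. These matches describe letters and were not tested as binding sites. Pairs of collagens that were nearest neighbours in the RefSeq gene table numbered 8, among them Col3a1 with Col5a2, Col6a1 with Col6a2, Col4a1 with Col4a2, Col4a3 with Col4a4 and Col4a5 with Col4a6. Col4a1 and Col4a2 are read in opposite directions, and the starts that their promoter windows end at spanned 22 bases, both starts counted. In the gene table the 2 genes overlapped, with -85 bases between them.

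Values below are log2 expression levels, and a difference of 1 is a doubling. A difference is called where limma's p, adjusted over the 19938 genes, was below 0.05. Of the 44 collagens, 19 lay at or above the median level of all genes (8.82), a ranking of probe brightness and not of transcript abundance: 5 fibrillar, 6 basement membrane and 8 others. The remaining 25, called dim here, had a mean over the 16 arrays below it, although some exceeded it on single arrays. Their mean per array, between 7.99 and 8.37, was highest on the array of BLT1-/-KRasLA1 CS replicate 1 (8.37) and on those of the BLT1-/- PBS pool and BLT1+/+ CS replicate 3 of day 2 (8.34 each). The mean of 5532 genes over the same range of levels was also highest on these arrays, at 8.06, 8.05 and 8.02, against 7.94 on the lowest. All collagens called in a response to silica belonged to the 19 brighter genes, a split made after the values were seen. RMA pulls dim probe sets towards a floor, so an uncalled dim collagen is not shown to be unchanged. Markers of lung epithelium and endothelium were bright on all arrays, with list means between 12.64 and 12.92 and between 11.56 and 12.2. Eif2s3y, a gene of the Y chromosome, read 9.04 to 10.09 on 3 arrays, namely BLT1+/+KRasLA1 CS replicate 2 and both PBS pools of day 60, and 4.27 to 4.74 on the other 13. Xist, a gene of the X chromosome, read 6.61 on that CS lung, 12.16 and 12.32 on those pools, and 12.75 to 13.06 elsewhere. Both day 60 pools thus carried Y signal that the other CS lungs of day 60 and the day 2 pools lacked. Its part in the day 60 responses and in the difference between pools was not tested.

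At day 2 silica raised 7 of the 44 collagens and lowered 1 in the mean response of both BLT1 genotypes, against 8.03% of all genes raised and 4.37% lowered. The share raised was 15.9% of collagens and the share lowered 2.27%. The median difference was -0.03 over all collagens and -0.02 over all genes. It was 0.23 over the 19 brighter collagens and -0.05 over the 25 dim ones. Among fibrillar collagens 4 of 11 rose, among basement membrane collagens 2 of 8, and among the others 1 of 25 rose and 1 fell.

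Col3a1, the chain of type III collagen, showed the largest called rise. It read 10.39 in the BLT1+/+ pool and 10.94, 10.81 and 11.12 in the BLT1+/+ CS lungs of day 2. In BLT1-/- mice it read 10.41 in the pool and 11.08, 11.17 and 11.20 in the CS lungs. All 6 CS lungs lay above both pools, and the mean rise was 0.65 ± 0.08 (SE), or 1.57-fold (adjusted p = 0.000321). Col5a2, a chain of type V collagen that initiates fibrils and the chromosomal neighbour of Col3a1, was at 9.0 and 9.06 in the pools. Its CS lungs read 9.33, 9.37 and 9.40 in BLT1+/+ and 9.39, 9.52 and 9.85 in BLT1-/- mice. The CS lungs again lay above both pools, by a mean of 0.45 ± 0.10 (adjusted p = 0.0114).

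Type I collagen, the main tensile fiber, is built from Col1a1 and Col1a2 chains. Col1a2 read 10.73 in the BLT1+/+ pool against 11.06, 10.83 and 10.98 after silica, and 10.84 in the BLT1-/- pool against 11.21, 11.24 and 11.25. Each CS lung lay above the pool of its genotype, although BLT1+/+ replicate 2 fell just below the BLT1-/- pool, and the mean rise was 0.31 ± 0.07 (adjusted p = 0.00811). Col1a1 read 10.96 in the BLT1+/+ pool and 11.40, 11.03 and 11.27 after silica, and 11.34 in the BLT1-/- pool and 11.71, 11.70 and 11.74 after silica. Its mean rise was 0.32 ± 0.09 (adjusted p = 0.0402). This call was lost without any of 7 single CS lungs, at adjusted p between 0.0525 and 0.0705. The remaining fibrillar collagens, Col2a1, Col5a1, Col5a3, Col11a1, Col11a2, Col24a1 and Col27a1, differed by -0.13 to 0.10 and were not called. Col2a1, Col11a1 and Col11a2 belong to cartilage, and cartilage markers differed in brightness, with means of 6.81 for Acan and 6.75 for Matn1 but 10.89 for Chad and 10.35 for Cytl1.

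**Figure D1:**
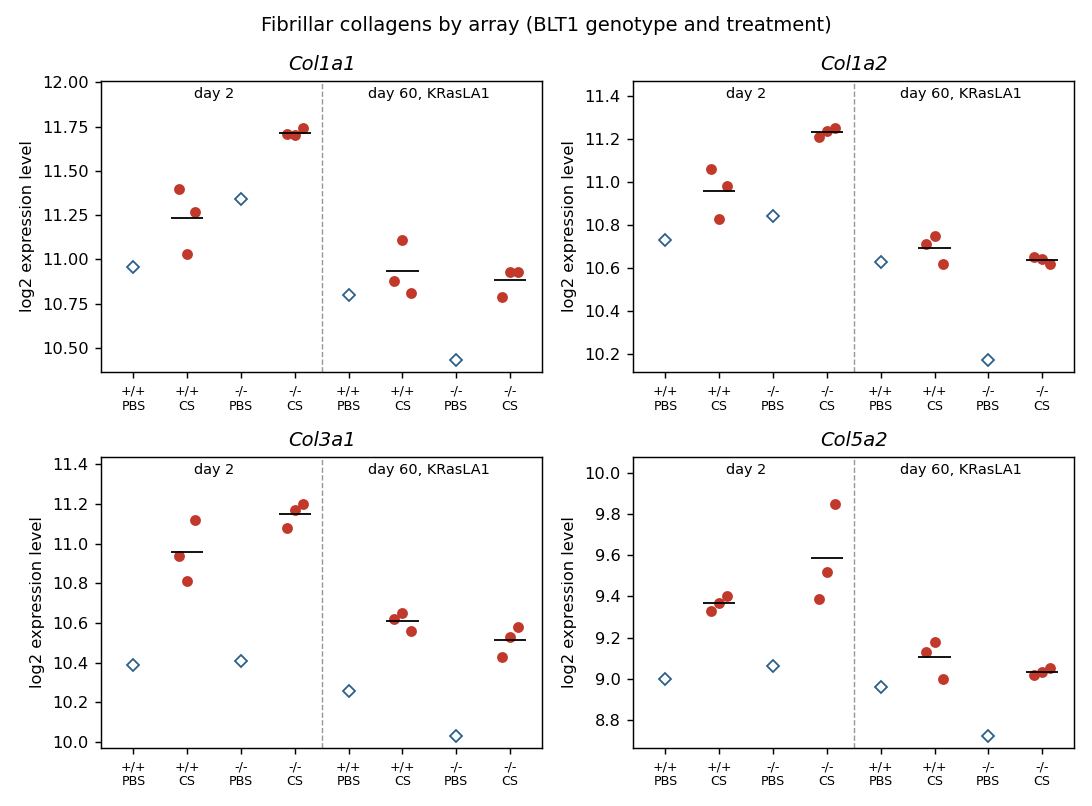
Log2 expression level of Col1a1, Col1a2, Col3a1 and Col5a2 on each array, with groups along the horizontal axis by BLT1 genotype and treatment, day 2 on the left and day 60 (KRasLA1) on the right of the dashed line. Filled circles are CS lungs, open diamonds PBS pools and bars the mean of 3 CS lungs; for Col3a1 every CS lung lay above the PBS pools of its day, from 10.81 at day 2 and from 10.43 at day 60.

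Type IV collagen split by chain. Col4a1 read 10.68 in the BLT1+/+ pool and 10.87, 10.85 and 10.79 in its CS lungs, and 10.79 in the BLT1-/- pool and 11.15, 11.29 and 11.11 in its CS lungs. Col4a2 read 10.79 in the BLT1+/+ pool and 10.82, 11.01 and 10.93 after silica, against 10.76 in the BLT1-/- pool and 11.21, 11.39 and 11.32 after silica. Both genes were higher in the 3 BLT1-/- CS lungs than on any other array of day 2. Their mean rises were 0.27 ± 0.07 for Col4a1 (adjusted p = 0.016) and 0.34 ± 0.07 for Col4a2 (adjusted p = 0.00601). The 4 chains of the specialised networks differed the other way without being called, by -0.10 for Col4a3, -0.14 for Col4a4, -0.18 for Col4a5 and -0.27 for Col4a6, which of these had the smallest adjusted p (0.0937). Col4a4, Col4a5 and Col4a6 were lower in all 6 CS lungs than in the pool of their genotype. Col18a1, whose product carries endostatin, differed by 0.22 ± 0.08 (adjusted p = 0.0909), and Col15a1, its closest relative in basement membranes, by -0.01.

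**Figure D2:**
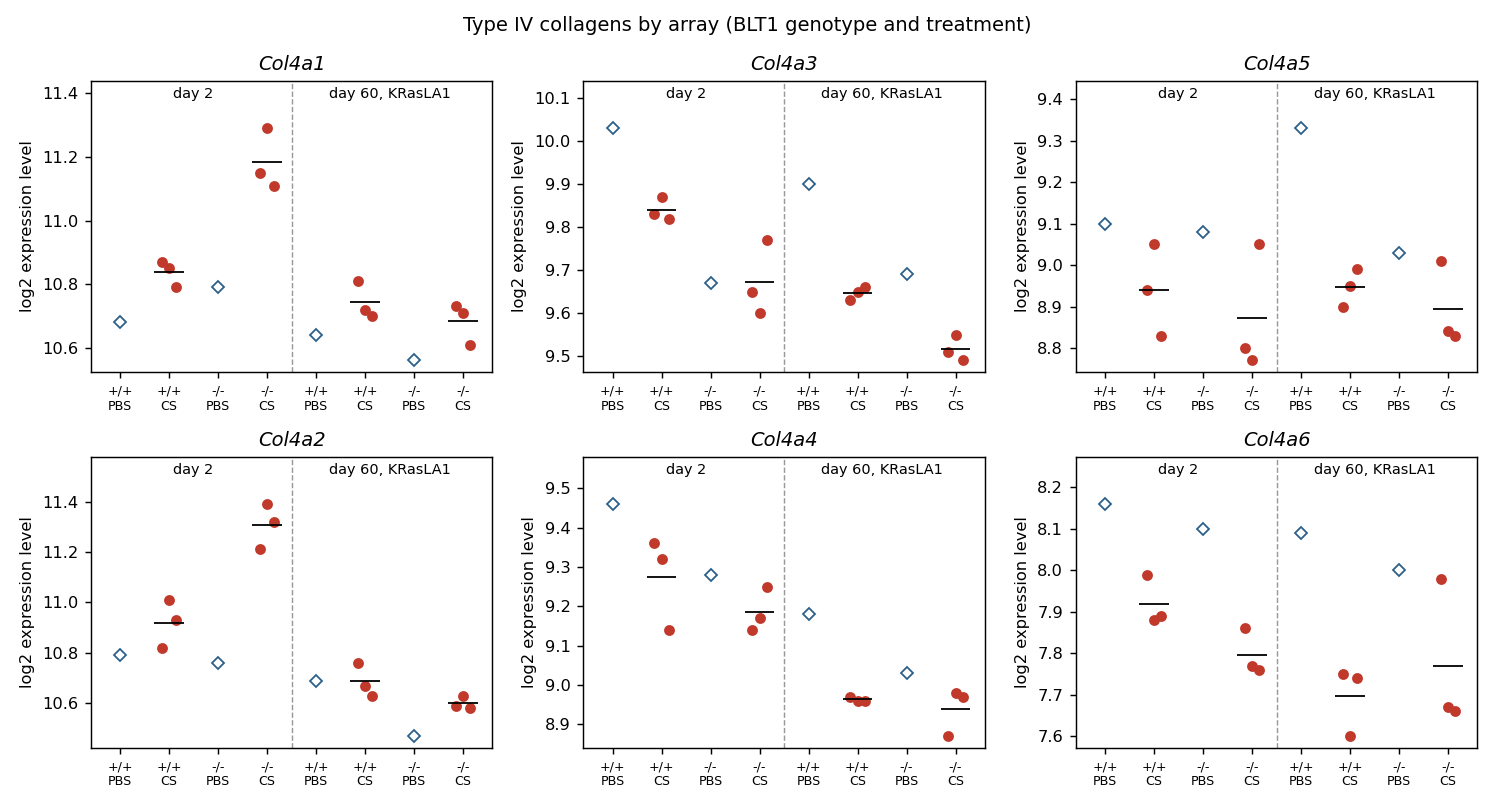
Log2 expression level of the 6 type IV chains on each array, arranged as neighbouring pairs of genes from left to right, with groups along the horizontal axis, CS lungs as filled circles with a bar at their mean and PBS pools as open diamonds. Col4a1 and Col4a2 peak in the BLT1-/- CS lungs of day 2, at 11.11 to 11.29 and 11.21 to 11.39, while for Col4a5 and Col4a6 each pool lies above the CS lungs of its genotype and day.

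Among the other collagens, Col6a1 rose and Col14a1 fell at day 2. Col6a1, a chain of the beaded type VI filament, read 10.59 and 10.73 in the BLT1+/+ and BLT1-/- pools. Its CS lungs read 10.75, 10.80 and 10.88 in BLT1+/+ and 10.93, 11.05 and 11.08 in BLT1-/- mice, a mean rise of 0.25 ± 0.08 (adjusted p = 0.0459). The call was lost without any of 7 single CS lungs, at adjusted p between 0.0557 and 0.0804. Its partner chains Col6a2 and Col6a3 differed by 0.15 and 0.23 and were not called, with adjusted p of 0.341 and 0.0727. Col14a1, a fibril-associated collagen that binds decorin, read 10.31 and 10.20 in the pools and 10.11, 9.72 and 9.55 in the BLT1+/+ CS lungs against 9.89, 9.78 and 9.69 in the BLT1-/- CS lungs. Every CS lung lay below both pools, and the mean fall was -0.46 ± 0.11 (adjusted p = 0.0177).

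Col12a1 and Col8a1 had large but uneven differences at day 2. Col12a1, a fibril-associated collagen, read 10.06 in the BLT1+/+ pool and 9.78, 10.17 and 9.98 after silica, so that its CS lungs surrounded the pool. In BLT1-/- mice it read 9.46 in the pool and 9.87, 10.12 and 10.58 after silica. The mean difference of 0.32 ± 0.15 was not called (adjusted p = 0.206). Without the BLT1-/- pool, which had the lowest value of this gene among the 4 pools, the BLT1+/+ response of -0.09 remains. Col8a1, a short-chain collagen of vessel walls, read 8.81 and 8.88 in the pools, 9.04, 9.24 and 9.05 in BLT1+/+ CS lungs and 9.25, 9.47 and 10.01 in BLT1-/- CS lungs. All 6 CS lungs lay above both pools, but its difference of 0.49 ± 0.16 missed the threshold (adjusted p = 0.0662). With the replicate number of the day 2 CS lungs as a block it was called (adjusted p = 0.043). That fit was added after the values were seen, and its errors against the pools are too small. The 25 dim collagens differed by between -0.27 and 0.10 with 0 called.

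Without 1 pool, a fit of treatment and genotype over the arrays of day 2 gives only the response of the other genotype to its own pool. Without the BLT1-/- pool, Col3a1 differed by 0.57 and Col4a2 by 0.13, the BLT1+/+ responses. Without the BLT1+/+ pool, Col3a1 differed by 0.74 and Col4a2 by 0.55, the BLT1-/- responses. Such runs cannot test the mean response of both genotypes.

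**Figure D3:**
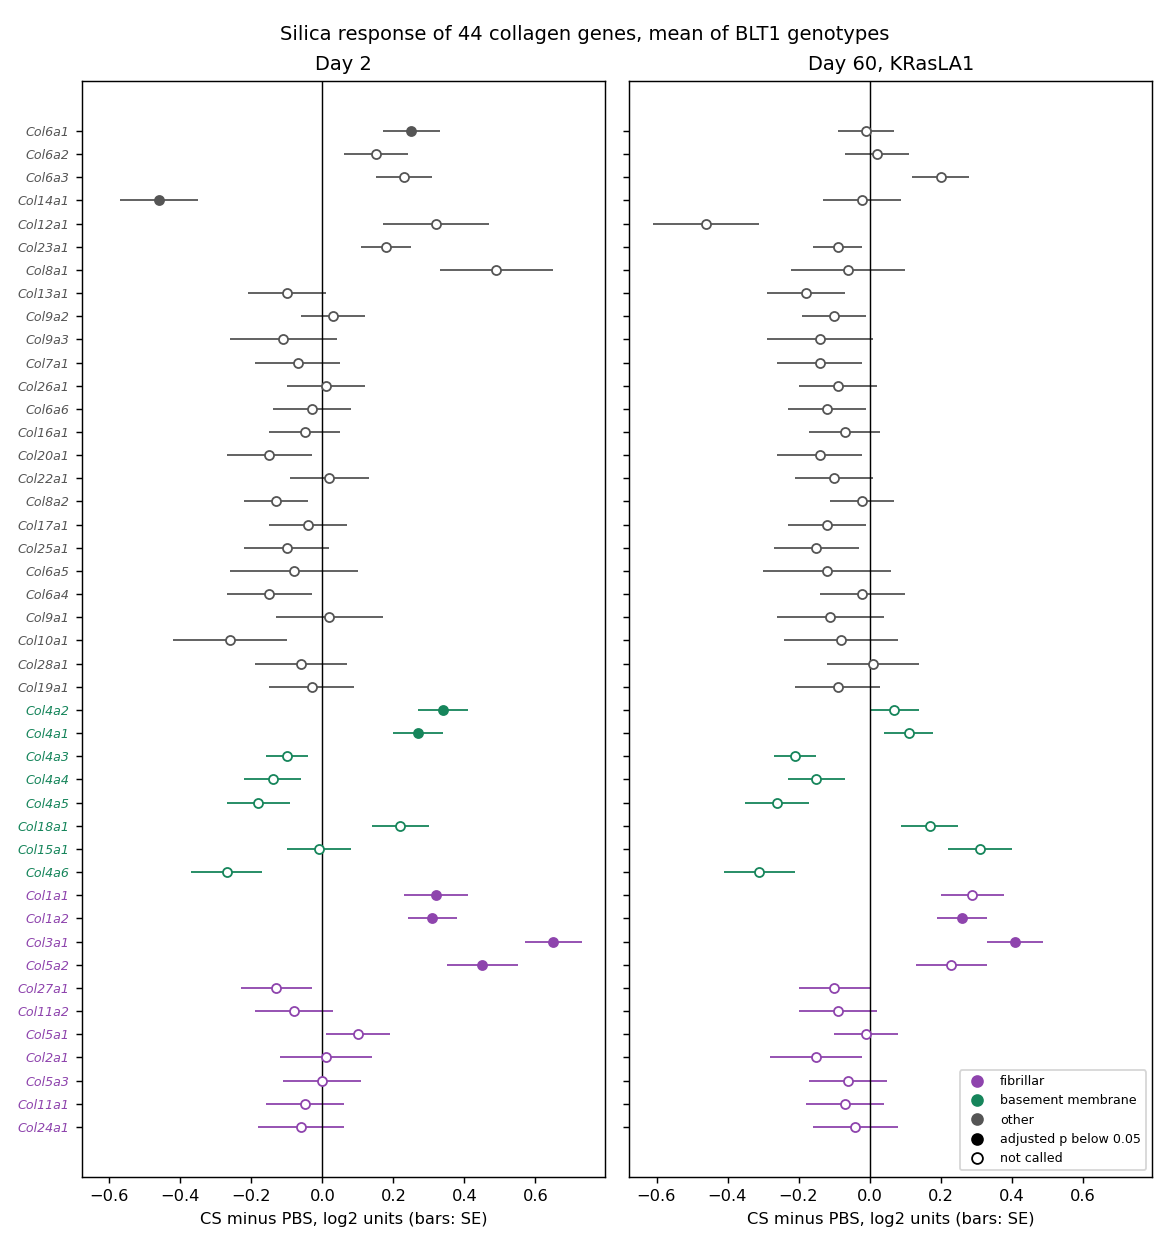
Silica response of the 44 collagen genes as CS minus PBS in log2 units with its standard error, averaged over the BLT1 genotypes, at day 2 (left) and day 60 (right). Each row is a gene, colored by class, and filled points were called; 8 are filled at day 2, with Col3a1 farthest to the right at 0.65 and Col14a1 farthest to the left at -0.46, and 2 are filled at day 60.

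At day 60, in KRasLA1 lungs, 2 of the 44 collagens were higher after silica and 0 were lower in the mean of both genotypes, against 3.35% and 0.677% of all genes. The median collagen differed by -0.08 and the median gene by -0.03. With each array centred on the median of its genes the split was 1 higher and 1 lower. Both called genes were fibrillar. Col3a1 read 10.26 in the BLT1+/+KRasLA1 pool and 10.62, 10.65 and 10.56 in its CS lungs, and 10.03 in the BLT1-/-KRasLA1 pool and 10.43, 10.53 and 10.58 in its CS lungs. The CS lungs did not overlap the pools, and the rise was 0.41 ± 0.08, or 1.33-fold (adjusted p = 0.0081). Col1a2 read 10.63 in the BLT1+/+KRasLA1 pool against 10.71, 10.75 and 10.62 after silica, and 10.17 in the BLT1-/-KRasLA1 pool against 10.65, 10.64 and 10.62 after silica. The rise was 0.26 ± 0.07 (adjusted p = 0.0391). The CS lungs of BLT1+/+KRasLA1 mice overlapped their own pool, and the BLT1-/-KRasLA1 pool was the lowest array of all.

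Col1a1 showed the same low pool, with 10.43 in the BLT1-/-KRasLA1 pool and 10.79, 10.93 and 10.93 in its CS lungs, against 10.80 in the BLT1+/+KRasLA1 pool and 10.88, 11.11 and 10.81 in its CS lungs. Its difference of 0.29 ± 0.09 was not called (adjusted p = 0.122). Without the BLT1-/-KRasLA1 pool, the response of BLT1+/+KRasLA1 lungs to their own pool remains. It was 0.35 for Col3a1, 0.06 for Col1a2 and 0.13 for Col1a1. The Col1a2 call in the mean response was lost without any of 7 single CS lungs, at adjusted p between 0.0558 and 0.08.

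Basement membrane collagens gave 0 calls of 8 at day 60. Col15a1, which had the smallest p among them, read 8.44 in the BLT1+/+KRasLA1 pool and 8.75, 8.80 and 8.64 after silica, and 8.36 in the BLT1-/-KRasLA1 pool and 8.64, 8.76 and 8.67 after silica. All 6 CS lungs lay above both pools, by a mean of 0.31 ± 0.09, just outside the threshold (adjusted p = 0.0627). The specialised type IV chains again lay below 0 and were not called, at -0.21 for Col4a3 (adjusted p = 0.0985), -0.15 for Col4a4, -0.26 for Col4a5 and -0.31 for Col4a6 (adjusted p = 0.119), and all 6 CS lungs were below the pool of their genotype for each of these 4 genes. Col4a1 and Col4a2 differed by 0.11 and 0.07. Among the others Col12a1 differed by -0.46 ± 0.15 (adjusted p = 0.13), with 10.02 and 9.84 in the pools and 9.34 to 9.58 in the 6 CS lungs.

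Set against their own pool, BLT1-/- mice had 6 collagens called at day 2 and BLT1+/+ mice 1, all higher. Of all genes 5.19% were higher and 1.4% lower in BLT1-/- mice, and 0.853% higher and 0.311% lower in BLT1+/+ mice. In BLT1-/- mice Col3a1 rose by 0.74, Col4a2 by 0.55, Col5a2 by 0.53 and Col1a2, Col4a1 and Col6a3 by 0.39 each. Col3a1 was the gene called in BLT1+/+ mice, at 0.57 ± 0.11 (adjusted p = 0.03). No collagen passed the test of the BLT1 by silica interaction, in which 0% of all genes were called in limma. At an unadjusted p below 0.05 there were 3 collagens at day 2 (6.82%, against 4.49% of all genes) and 1 at day 60 (2.27%, against 1.99%). The smallest interaction p at day 2 belonged to Col4a2, whose response was larger in BLT1-/- mice by 0.42 ± 0.14 (adjusted p = 0.82), followed by Col12a1 with 0.82 ± 0.30 (adjusted p = 0.82).

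Counts within a genotype moved with the arrays in the fit. In BLT1-/- mice the main fit called 6 collagens and 1315 of all genes. Without BLT1-/- CS replicate 2 of day 2 these counts were 2 and 829, and without replicate 3 they were 3 and 697. With the day 2 replicate block they were 8 and 2345, with Col12a1 at 0.73 (adjusted p = 0.0133) and Col14a1 at -0.41 (adjusted p = 0.0303) added. In BLT1+/+ mice the main fit called 1 collagen and 232 of all genes, and the block 2 and 749. Col14a1, at -0.52 (adjusted p = 0.0226), was called there beside Col3a1. Errors against the pools are too small in the block fit, which was added after the values were seen. The BLT1+/+ call of Col3a1 was lost without BLT1+/+ CS replicate 3 of day 2 (0.48, adjusted p = 0.0614) and without BLT1-/-KRasLA1 CS replicate 2 (adjusted p = 0.0541).

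At day 60, BLT1-/-KRasLA1 mice had 1 collagen called, Col1a2 at 0.46 ± 0.09 (adjusted p = 0.0313), against 1.1% of genes higher and 0.0702% lower. In limma BLT1+/+KRasLA1 mice had 0, against 0.687% and 0.0752%, and 6 collagens (13.6%) had an unadjusted p below 0.05 in each genotype, against 8.83% of all genes in BLT1-/-KRasLA1 and 9.71% in BLT1+/+KRasLA1 mice. Against the mean of both day 60 pools Col1a2 was not called (0.23, adjusted p = 0.14), while 1 other collagen was called higher, among 514 genes called. The Col1a2 call was lost as well without BLT1-/-KRasLA1 CS replicate 2 or replicate 3, at adjusted p of 0.084 and 0.0968.

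The CS lungs of the BLT1 genotypes can be compared without the pools. At day 2, 0 of the 44 collagens were called between BLT1-/- and BLT1+/+ CS lungs, where 0% of all genes were higher and 0.0201% lower in limma, and 12 collagens (27.3%) had an unadjusted p below 0.05, against 8.7% of all genes. The lungs of the genotypes did not overlap for 11 collagens: 9 were higher in all 3 BLT1-/- lungs, namely Col1a1, Col1a2, Col4a1, Col4a2, Col6a1, Col6a2, Col6a3, Col8a1 and Col18a1, and 2 were lower, Col4a3 and Col4a6. Of all genes 6.31% did not overlap with BLT1-/- lungs higher and 6.13% with them lower.

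Col1a1 averaged 11.72 ± 0.02 (SD, n = 3) in BLT1-/- and 11.23 ± 0.19 in BLT1+/+ CS lungs, a difference of 0.48 ± 0.09 (SE, adjusted p = 0.141). Col4a2 averaged 11.31 ± 0.09 and 10.92 ± 0.10 (SD), a difference of 0.39 ± 0.07 (adjusted p = 0.0991), the smallest p of any collagen in this comparison. Col4a1 followed with 0.35 (adjusted p = 0.141), Col18a1 with 0.34 (adjusted p = 0.222) and Col6a3 with 0.32 (adjusted p = 0.223). The BLT1-/- PBS pool was itself above the BLT1+/+ pool for Col1a1, at 11.34 against 10.96. It was also above for Col1a2, Col4a1, Col6a1, Col6a2, Col8a1 and Col18a1, from 8.88 against 8.81 for Col8a1 to 8.94 against 8.77 for Col18a1. Col4a3 (9.67 against 10.03) and Col4a6 (8.10 against 8.16) were lower in the BLT1-/- pool, as in the CS lungs. For Col4a2 the BLT1-/- and BLT1+/+ pools read 10.76 and 10.79, and for Col6a3 10.18 and 10.19. Same-numbered CS lungs of day 2 deviated together over all genes, and a block of these numbers was added after the values were seen. With it Col4a2 was called (0.39, adjusted p = 0.0318), 1 of 21 genes called in that fit. Col4a1 (adjusted p = 0.0574) and Col1a1 (adjusted p = 0.0647) were not. The planned replicate block over the 12 CS lungs called 0 collagens and 2 of all genes here, with Col1a1 at adjusted p = 0.195.

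**Figure D4:**
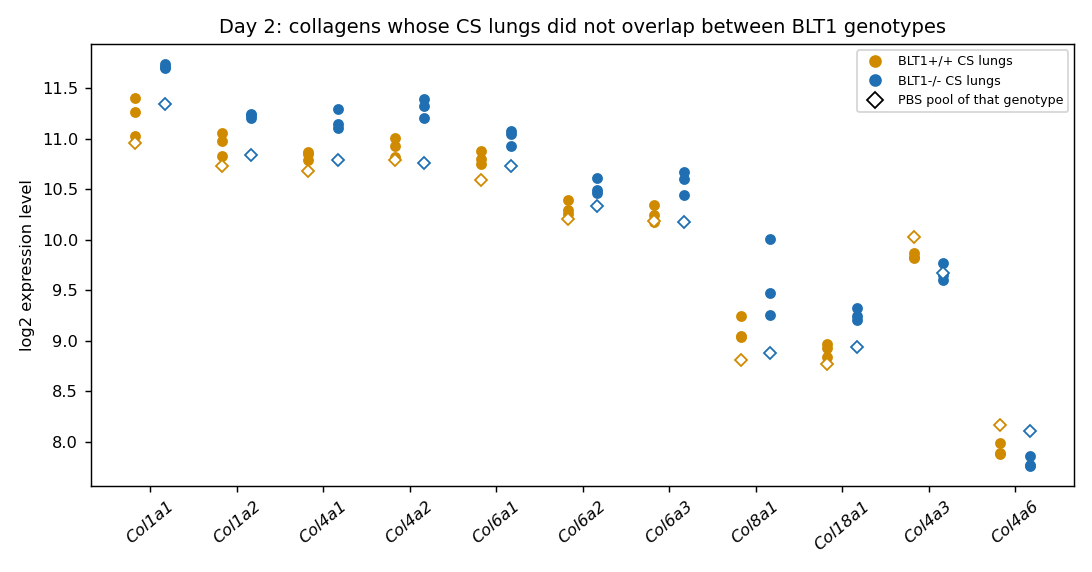
Log2 expression level at day 2 of the 11 collagens whose CS lungs did not overlap between BLT1 genotypes, with BLT1+/+ in orange and BLT1-/- in blue, circles for CS lungs and open diamonds for the PBS pool of that genotype. The 9 genes from Col1a1 to Col18a1 are higher in BLT1-/- CS lungs and the 2 at the right, Col4a3 and Col4a6, are lower; the genes were chosen by this lack of overlap.

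The CS lungs of the KRasLA1 genotypes at day 60 were compared in the same way. In limma 0 of 44 were called, against 0.015% of all genes higher in BLT1-/-KRasLA1 lungs and 0.0251% lower, and 0 had an unadjusted p below 0.05, against 4.06% of all genes. The lungs did not overlap for Col6a4, higher in BLT1-/-KRasLA1, and for Col4a2 and Col4a3, lower, against 4.58% and 5.92% of all genes. Col1a1 averaged 10.88 ± 0.08 (SD, n = 3) in BLT1-/-KRasLA1 and 10.93 ± 0.16 in BLT1+/+KRasLA1 CS lungs, and Col4a2 averaged 10.60 ± 0.03 and 10.69 ± 0.07. The day 2 difference between genotypes and that of day 60 were not tested against each other.

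Between the CS lungs of day 60 and those of day 2, over both genotypes, 17 of the 44 collagens were lower at day 60, 27 were not called and 0 were higher, or 38.6% lower against 13.8% of all genes, while 12.2% of all genes were higher. By class these were 4 of the 5 brighter fibrillar collagens and Col5a1, 5 of 8 basement membrane collagens, and 7 others. Day, silica exposure time and KRasLA1 change together here. All 6 lungs of day 60 lay below all 6 lungs of day 2 for 11 collagens, against 6.93% of all genes, and above them for Col15a1 alone, against 6.47%.

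Col8a1 differed most, by -0.69 ± 0.12 (adjusted p = 0.000633): its CS lungs ranged from 9.04 to 10.01 at day 2, with a single high lung (BLT1-/- replicate 3), and from 8.44 to 8.93 at day 60. Col12a1 ranged from 9.78 to 10.58 at day 2 and from 9.34 to 9.58 at day 60, lower by -0.61 ± 0.11 (adjusted p = 0.000798). Neither gene overlapped between days. Among fibrillar collagens Col1a1 differed by -0.57 ± 0.07 (adjusted p = 4.59e-05), Col3a1 by -0.49 ± 0.06 (adjusted p = 3.35e-05), Col1a2 by -0.43 ± 0.05 (adjusted p = 2.47e-05) and Col5a2 by -0.41 ± 0.07 (adjusted p = 0.00083). Col1a1 is the exception among these in that 1 lung of each day overlapped, BLT1+/+ replicate 2 of day 2 at 11.03 and BLT1+/+KRasLA1 replicate 2 of day 60 at 11.11.

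Of the 6 type VI chains 3 were lower, Col6a3 by -0.47, Col6a1 by -0.42 and Col6a2 by -0.34, with no overlap between days for any of them. The other three, Col6a4, Col6a5 and Col6a6, differed by -0.01, -0.06 and -0.13 and were not called. Basement membrane chains followed with -0.47 for Col4a2 (adjusted p = 1.77e-05), -0.29 for Col4a1, -0.28 for Col4a4, -0.17 for Col4a3 and -0.16 for Col18a1 (adjusted p = 0.0492). Col15a1 went the other way, at 8.36 to 8.63 on day 2 and 8.64 to 8.80 on day 60, and was not called (0.17 ± 0.06, adjusted p = 0.0585). The transmembrane collagens Col23a1 and Col13a1 were lower by -0.28 and -0.24, and fibrillar Col5a1, the only called gene among the 25 dim collagens, by -0.24. The calls of Col13a1 and Col18a1 were lost without any of 8 and 9 single lungs, at adjusted p up to 0.0884 and 0.118.

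PBS pools of the days, 2 against 2, gave 0 called collagens, against 0.166% of genes higher and 0.231% lower in limma, and 6 collagens (13.6%) at an unadjusted p below 0.05, against 10.7% of all genes. Several differed in the same direction as the CS lungs: Col1a1 by -0.54 ± 0.12 (adjusted p = 0.0704), Col6a3 by -0.44 ± 0.09 (adjusted p = 0.0685), Col1a2 by -0.38 ± 0.08 (adjusted p = 0.0643) and Col3a1 by -0.26 ± 0.10 (adjusted p = 0.316). Col12a1 and Col8a1 differed little between the pools, by 0.17 ± 0.18 and -0.13 ± 0.20. The difference of the silica responses between days was called for 0 collagens, where 1.7% of genes were higher at day 60 and 0.657% lower, with 7 collagens (15.9%) at an unadjusted p below 0.05, against 14.1% of all genes. Col12a1 had the smallest p, its response being lower at day 60 by -0.78 ± 0.21 (adjusted p = 0.0795). With the day 2 replicate block Col12a1 was called (adjusted p = 0.0183), as was Col14a1 at 0.45 (adjusted p = 0.0376). That fit called 977 of all genes against 469 in the main fit, and its errors against the pools are too small. Within BLT1-/- mice alone the Col12a1 difference was -1.09 ± 0.30 (adjusted p = 0.109) and within BLT1+/+ mice -0.47 ± 0.30, a split added after the values were seen.

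**Figure D5:**
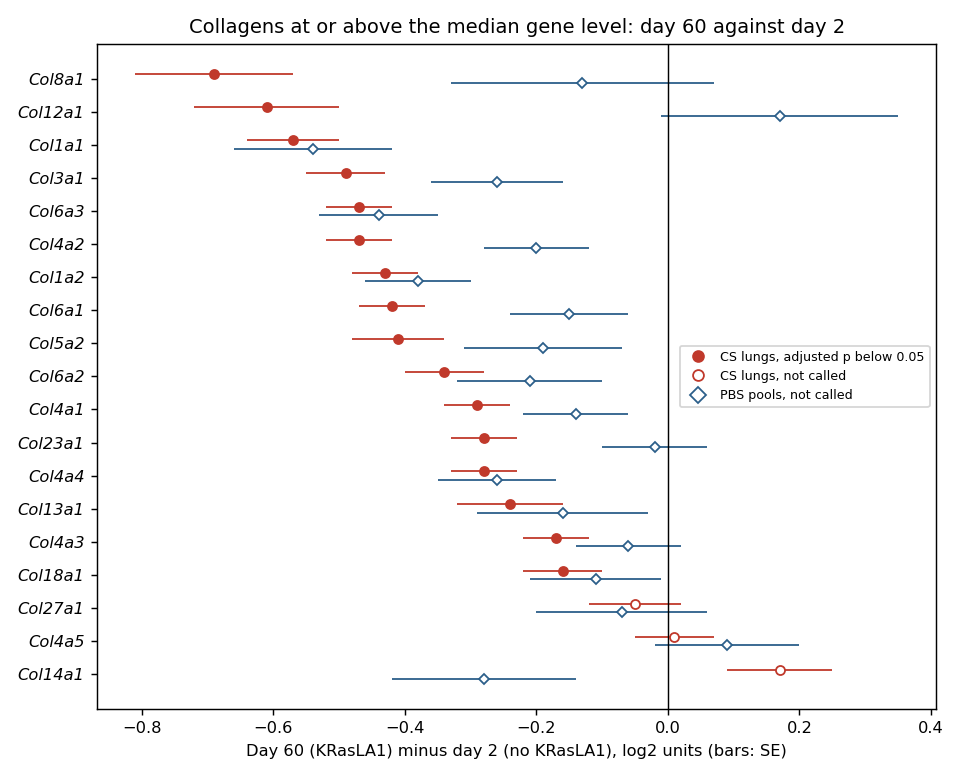
Difference between day 60 (KRasLA1) and day 2 in log2 units with its standard error, for the 19 collagens at or above the median gene level, ordered by the difference of the CS lungs. Circles are the 6 CS lungs of each day, filled where called, and diamonds the 2 PBS pools of each day; CS lungs of Col8a1 and Col12a1 lie at -0.69 and -0.61 while their pools lie at -0.13 and 0.17.

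Of 19 measured genes that fold and modify collagen chains, 7 were higher, 1 was lower and 11 were not called at day 2, with a list median of 0.21 against -0.02 over all genes. For this and the lists that follow, the shares of all genes called were 8.03% higher and 4.37% lower at day 2, 3.35% and 0.677% at day 60, and 12.2% and 13.8% between the CS lungs of the days. P4ha3, a catalytic subunit of the prolyl 4-hydroxylase that stabilises the helix, read 7.83 and 7.79 in the pools and 8.26 to 9.72 in the 6 CS lungs, a rise of 1.18 ± 0.26 (adjusted p = 0.0102). P4hb, the partner subunit of that enzyme, rose by 0.36 ± 0.05 (adjusted p = 0.000813), the prolyl 3-hydroxylase P3h1 by 0.41 ± 0.08 (adjusted p = 0.00436) and Sec24d, a coat protein of the vesicles that carry procollagen, by 0.36 (adjusted p = 0.0115). Colgalt2, which adds galactose to collagen, fell by 0.74 on the log2 scale (adjusted p = 0.0234). At day 60 P4ha3 was again higher, by 1.01 ± 0.26 (adjusted p = 0.0457), and Plod2, which hydroxylates lysines for cross-links, was lower by -0.41 ± 0.10 (adjusted p = 0.0329), the 2 calls of this list. Between the CS lungs of the days 9 of 19 were lower at day 60 and 0 higher. Serpinh1, the collagen chaperone of the endoplasmic reticulum, was lower by -0.39 ± 0.07 (adjusted p = 0.00101), after a rise of 0.42 ± 0.10 at day 2 (adjusted p = 0.0132).

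Of 14 measured genes that trim or cross-link procollagen, 3 were higher and 1 lower at day 2, and 0 were called at day 60. Lox, the lysyl oxidase that starts cross-linking, read 10.52 in the BLT1+/+ pool and 10.76 to 11.63 in its CS lungs, and 11.04 in the BLT1-/- pool and 11.47 to 12.03 in its CS lungs. It rose by 0.71 ± 0.22 (adjusted p = 0.0471), although 1 BLT1+/+ CS lung lay below the BLT1-/- pool. Adamts3, a protease that removes the amino-terminal propeptide, rose by 0.42 ± 0.09 (adjusted p = 0.0087) and Loxl3 by 0.26 (adjusted p = 0.0396), while Pcolce2, an enhancer of carboxy-terminal trimming, fell by 0.56 on the log2 scale (adjusted p = 0.0436). Between days the CS lungs of day 60 were lower by -1.0 ± 0.15 for Lox (adjusted p = 0.000339) and by -0.63 ± 0.06 for Adamts3 (adjusted p = 1.76e-05). The Lox pools were lower at day 60 as well, at 10.14 and 9.88 against 11.04 and 10.52 at day 2. The Adamts3 pools read 8.72 and 8.63 at day 60 against 8.85 and 8.82.

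Of 12 proteases that cut collagen and their inhibitors, 3 were higher and 1 lower at day 2, against 8.03% and 4.37% of all genes, and 6 were higher and 0 lower at day 60, against 3.35% and 0.677%. Ctsk, a lysosomal protease that cuts the collagen helix, rose at both days, by 1.45 ± 0.14 (adjusted p = 8.9e-05) and 1.84 ± 0.14 (adjusted p = 8.75e-06). Timp1, an inhibitor of the matrix metalloproteinases, rose by 3.36 ± 0.24 at day 2 (adjusted p = 1.01e-05), from 9.23 and 9.24 in the pools to between 12.03 and 12.89, and by 1.79 ± 0.24 at day 60 (adjusted p = 0.00106). The collagenase Mmp13 rose at day 60 by 1.74 ± 0.28 (adjusted p = 0.00331), from 7.24 and 7.08 in the pools to between 8.14 and 9.78. Mmp2, a gelatinase, rose at day 60 by 0.68 ± 0.09 (adjusted p = 0.00112), with pools that were lower at day 60 than at day 2 by -0.58 ± 0.11 (adjusted p = 0.0479). Whether the day 2 and day 60 responses of the list differ was not tested.

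Of 16 collagen-binding matrix proteins 3 rose and 3 fell at day 2. Fibronectin (Fn1) rose by 0.49 ± 0.09 (adjusted p = 0.00375), Tgfbi by 0.49 (adjusted p = 0.00802) and Thbs1 by 0.51 (adjusted p = 0.0201). The 3 that fell are small leucine-rich proteoglycans, Prelp by 0.57 (adjusted p = 0.0198), Fmod by 0.40 (adjusted p = 0.0309) and Dcn, which binds Col14a1, by 0.28 (adjusted p = 0.0107), all on the log2 scale. Others of that family, Bgn, Lum, Ogn, Aspn, Kera and Podn, were not called. At day 60 Fn1 and Tgfbi were higher by 0.54 and 0.44 and Dcn lower by -0.29 (adjusted p = 0.0176). Collagen receptors gave 1 call of 10 at each day, Itga1 at -0.42 on day 2 (adjusted p = 0.0362) and Lair1, an inhibitory receptor of leukocytes, at 0.64 on day 60 (adjusted p = 0.0226). Among 17 laminins and other basement membrane partners of type IV collagen, 0 rose and 3 fell at day 2, Lama2 by 0.28, Lama3 by 0.38 and Npnt by 0.32 on the log2 scale, and 0 were called at day 60.

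Markers of the cells that could carry collagen transcripts moved as follows. Of 18 fibroblast markers 0 rose and 6 fell at day 2, with array means of 11.14 to 11.17 in the pools and 10.89 to 11.06 in CS lungs. Dpt fell by 0.31 (adjusted p = 0.00364) and Thy1 by 0.52 on the log2 scale (adjusted p = 0.00613). Thy1 was the single marker of this list called at day 60, higher by 0.46 (adjusted p = 0.0227), and does not speak for the list. The fibroblast array means of day 60 overlapped, at 10.84 to 11.02 in the pools and 10.69 to 10.96 in CS lungs. Of 13 activated fibroblast markers 2 rose at day 2, Tnc by 2.80 ± 0.23 (adjusted p = 2.81e-05) and Sfrp1 by 0.83 (adjusted p = 0.0163). Array means of the list were 9.72 to 9.73 in the pools and 9.91 to 10.14 in CS lungs. These means hold the large rise of Tnc, from 8.90 and 8.98 in the pools to between 10.91 and 12.27. Acta2 read 12.65 and 12.79 in the pools and 12.64 to 12.91 in CS lungs, and Tagln 10.21 and 10.45 against 10.28 to 10.57. At day 60, 3 of the 13 markers were higher, Tnc, Sfrp1 and Ltbp2. Lower were 2, Tagln at -0.55 (adjusted p = 0.0147) and Acta2 at -0.34 (adjusted p = 0.0397). In RNA of a whole lung, fewer cells of a type and less RNA per cell cannot be told apart.

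Other tissues of the chest were also read. Heart muscle markers were lower after silica at day 2 for 6 of 12, Actc1 by -1.09 ± 0.23 (adjusted p = 0.00795), with array means of 10.01 to 10.05 in the pools and 9.08 to 9.71 in CS lungs, and 0 of 12 were called at day 60. Cartilage markers were lower for 2 of 18 at day 2, Chad by -1.28 ± 0.22 (adjusted p = 0.00277) and Cytl1 by -0.61 ± 0.11 (adjusted p = 0.00256), with array means of 7.68 to 7.85 in the pools and 7.59 to 7.73 in CS lungs. Smooth muscle markers, among them Acta2, Tagln, Myh11 and Actg2, were lower for 8 of 12 in the CS lungs of day 60 against those of day 2. Their array means were 9.30 to 9.62 against 9.63 to 10.09, and the pools read 9.74 to 10.00 against 10.10 to 10.17. Fibroblast markers had array means of 10.69 to 10.96 in the CS lungs of day 60 against 10.89 to 11.06 in those of day 2. Of 14 endothelial markers 2 fell at day 2, and of 8 mesothelial markers 2 rose and 2 fell. Of 5 nerve sheath markers 1 fell, and of 14 epithelial markers 1 rose and 2 fell. At day 60 the calls after silica were 3 lower smooth muscle markers, 1 lower cartilage marker (Cytl1, -0.88), 1 lower mesothelial marker, and 1 higher and 1 lower epithelial marker. Their part in the collagen differences was not tested.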

How the data were processed

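The deposited values are log2 expression levels made by the authors with RMA (background correction, quantile normalization and probe set summary) in Partek 6.6, per the submitters' processing notes, from 250 ng of total lung RNA per array. Background-level probe sets keep a value, and differences of dim genes are compressed. Quantile normalization sets the arrays to a like distribution, with array medians between 8.25 and 8.34. Arrays carry no read depth, so the number of arrays limits the precision. Of 35556 probe sets, 21789 had a single gene symbol in the platform annotation, 1621 several and 12146 none. Only the first kind was used, and for the 999 genes with several such probe sets the one of highest mean level. No arrays were near copies, the closest pair of arrays differing with an SD of 0.221.

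A limma 3.58.1 fit (R 4.3.3) of group means over the 16 arrays, with a mean-variance trend, gave 13 contrasts, with p-values adjusted by Benjamini-Hochberg over 19938 genes. The 8 residual degrees of freedom come from CS lungs alone, with 5.4 added by the prior. The median SE was 0.14 for a response against its own pool, 0.1 for a mean response and 0.2 for an interaction. The script was tested on simulated data. Same-numbered CS lungs of day 2 deviated together (correlations of 0.43, 0.2 and 0.34) and those of day 60 did not (0.09, 0.01 and 0.06), so a block of the day 2 numbers was added after the values were seen. In that fit errors against the pools are too small, because pools share no number. No number of the labels is stated to mark a litter or day.

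Any collagen may be named. From the other lists up to 4 called members with the smallest p in each direction were named, or 2 with the smallest p, and for cell type lists their levels. The mean levels of Acan and Matn1, the 6 uncalled proteoglycans, the value of Serpinh1 at day 2, Eif2s3y and Xist lie outside this rule. So do the day 2 levels of Acta2 and Tagln. All of these were chosen after the values were seen. The collagens and the lists were chosen with earlier results of these data known. Promoter sequences are from RefSeq, assembly GRCm38.p6.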

Additional observations from a re-analysis of the deposited data

How the results depend on the processing

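Of 39 gene results, 19 kept their direction and side of the threshold in every alternative run. Among them were 15 of the 17 collagens lower in CS lungs of day 60 (the exceptions were Col13a1 and Col18a1). Of the called silica responses only Col3a1 and Col4a2 in BLT1-/- mice at day 2 were among them. The others were uncalled Col1a1 results. Each called mean response at day 2 or day 60 lost its call in some run. For Col1a2, Col3a1, Col4a2 and Col5a2 at day 2 and Col3a1 at day 60 these were only runs without a PBS pool. Of 755 recomputed gene results 643 were unchanged in this sense, 109 lost and 2 gained a call, and 1 reversed. The reversal was Col12a1 at day 2, at -0.09 without the BLT1-/- PBS pool and 0.73 without the BLT1+/+ pool. Runs without a PBS pool give the response of the other genotype alone. Lost calls and the reversal in them do not test the mean response. The number of called collagens changed as follows, with the number of all genes called in that run in brackets. At day 60 the mean response gave 1 (808) instead of 2 (802) with quantile normalization and 1 (689) without the mean-variance trend. At day 2 it gave 4 (1589) instead of 8 (2473) from the arrays of that day alone. BLT1-/- at day 2 gave 3 (1420) instead of 6 (1315) with quantile normalization. It gave 2 (425) from the arrays of that day alone and 11 (2642) against the mean of both pools. BLT1+/+ at day 2 gave 0 instead of 1 (232) without the trend (134) or from that day alone (93), and 2 (749) with the replicate block. BLT1-/-KRasLA1 gave 0 instead of 1 (234) with quantile normalization (197), with centred arrays (147) or without the trend (172). It gave 2 without the dimmest genes, a low-level filter (270), or from that day alone (167). BLT1+/+KRasLA1 gave 2 (619) instead of 0 (152) against the mean of both pools. With single CS lungs left out, the ranges were 6 to 9 (1945 to 3099) for the mean response at day 2 and 1 to 3 (573 to 1040) at day 60. They were 0 to 2 (65 to 685) for BLT1+/+, 2 to 8 (697 to 1629) for BLT1-/- and 0 to 2 (69 to 432) for BLT1-/-KRasLA1. The difference of responses gave 0 to 2 (312 to 716) and the PBS pools 0 to 2 (38 to 103). CS lungs between days gave 15 to 20 (4282 to 5355). Ranges were 0 for BLT1+/+KRasLA1 (43 to 477), the interactions (0) and the BLT1 differences at day 2 (1 to 6) and day 60 (1 to 8). Runs without a PBS pool are not in these ranges. With the day 2 replicate block the BLT1 difference at day 2 gave 1 (21) instead of 0 (4) and the difference of responses 2 (977) instead of 0 (469). CS lungs between days gave 18 (5844) instead of 17 (5199), where Col14a1 and Col15a1 were added as higher and Col18a1 was lost (adjusted p = 0.0548). A replicate block over the 12 CS lungs alone gave 0 collagens in the BLT1 differences at day 2 (2) and day 60 (7). The causes were not tested. Dim signal and unreplicated pools limit what can be called.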
